A study of Homo sapiens with 38 samples.

Results

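The genes described here are 33 genes of the lysosome and of the vacuolar ATPase, out of 20037 protein-coding genes on the chromosomes of the deposited lists. They were taken by name, and for each the regions of 3 ChIP-seq lists were collected within its RefSeq gene record plus 2 kb on each side, here called the gene window. By role they are 8 subunits of the V1 part of the pump, 7 V0 and accessory subunits, 3 membrane proteins and channels, 12 hydrolases and activators and 3 transcription factors. All 33 had a gene record. Of these, 22 also had a promoter sequence in the RefSeq table, which fixes the gene start and its strand.

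The data come from ChIP-seq of Jurkat, an established human T-cell acute lymphoblastic leukaemia (T-ALL) line. An antibody enriches the chromatin that carries a protein or mark, and stretches of the genome with an excess of reads are reported as regions, each with a summit. Of 38 samples in 19 groups of 2, the values below come from 3 groups carrying a control lentivirus (Ctrl_LV) and treated with the T-cell activators PMA (50 ng/ml) plus ionomycin (500 ng/ml), one each for GATA3, BHLHE40 and the histone mark H3K27ac. The sample labels give a stimulation of 5 hours and the treatment protocol 2 hours. The other 16 groups (cells labelled sgCtrl_P258, sg70_P260 or BHLHE40_LV, H3K27me3 and TAL1 among the antibodies, and WCE) were not analysed here. The cells are a transduced leukaemia line and not primary T cells, and the labels do not say whether they were grown from 1 clone.

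Both samples of a group share a single region list, so no value per sample, no spread between replicates and no test over samples can be given. The sequencing depth is unknown. The BHLHE40 list held 26205 regions, the GATA3 list 29009 and the H3K27ac list 113570. Signal values are the authors' measure of enrichment and are compared only within 1 list, where the median was 9.35 for BHLHE40, 11.2 for GATA3 and 3.31 for H3K27ac. As a check of the cell label, 11 of 12 T-cell and T-ALL genes had H3K27ac at the gene start, PTCRA being the exception, against 4 of 15 genes of B cells, myeloid cells, liver, erythroid cells and melanocytes. Those 4 were CD79A, APOA1 and the melanocyte genes PMEL and DCT. Over all protein-coding genes the share was 55.3%.

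The vacuolar ATPase pumps protons into lysosomes and related compartments. Its cytosolic V1 sector hydrolyses ATP and its V0 sector, in the membrane, carries the protons. The low pH lets cathepsins and glycosidases work, and losing one of these enzymes commonly causes a lysosomal storage disease. Many such genes carry the E-box CACGTG near their start, often within a longer sequence named CLEAR (coordinated lysosomal expression and regulation), to which the factors TFEB, TFE3 and MITF bind. BHLHE40, a repressor of the basic helix-loop-helix family, also binds CACGTG. None of the 3 lists measures TFEB, TFE3 or MITF binding. GATA3 is a zinc finger factor of T-cell development, and H3K27ac marks active promoters and enhancers.

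The promoter sequences are shown first because the E-box is what many of these genes share. In the window from 250 bases before to 50 after each listed start, 9 of 22 genes held CACGTG (40.9%), beside 1727 of 15843 protein-coding genes with a listed start (10.9%). Among genes with H3K27ac at the start, the counts were 9 of 20 and 13.3% of 9131. The stretches around the E-boxes of all 9 genes, ordered by the BHLHE40 signal value there, read as follows on the strand of the gene (RefSeq, GRCh38.p14), with every CACGTG in capitals.
LAMP1 (chr13:113297022-113297249, plus strand): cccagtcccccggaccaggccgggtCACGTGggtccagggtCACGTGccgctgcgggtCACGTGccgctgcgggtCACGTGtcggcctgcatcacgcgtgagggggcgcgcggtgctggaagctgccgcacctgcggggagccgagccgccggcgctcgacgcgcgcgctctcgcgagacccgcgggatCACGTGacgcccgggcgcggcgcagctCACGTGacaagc
ATP6V0D1 (chr16:67481186-67481241, minus strand): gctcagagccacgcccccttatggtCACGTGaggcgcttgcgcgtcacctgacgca
MCOLN1 (chr19:7522558-7522634, plus strand): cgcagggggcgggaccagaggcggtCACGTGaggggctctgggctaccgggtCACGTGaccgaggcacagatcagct
CTSA (chr20:45891268-45891340, plus strand): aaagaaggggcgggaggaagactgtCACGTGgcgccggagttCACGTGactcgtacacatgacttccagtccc
ATP6V0B (chr1:43974878-43974951, plus strand): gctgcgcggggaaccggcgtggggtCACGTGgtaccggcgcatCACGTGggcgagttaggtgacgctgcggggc
CTSD (chr11:1763944-1763999, minus strand): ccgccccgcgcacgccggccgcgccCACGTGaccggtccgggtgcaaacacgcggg
ATP6V1G1 (chr9:114587686-114587741, plus strand): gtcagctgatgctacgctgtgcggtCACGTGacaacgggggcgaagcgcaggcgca
NEU1 (chr6:31862917-31862972, minus strand): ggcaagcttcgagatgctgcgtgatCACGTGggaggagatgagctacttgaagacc
GAA (chr17:80101480-80101580, plus strand): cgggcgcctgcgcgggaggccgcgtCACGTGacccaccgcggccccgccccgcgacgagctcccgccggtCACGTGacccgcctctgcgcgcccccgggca

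CACGTG reads the same on both strands, so each copy was counted once per promoter window. At least 2 copies in 1 window were found in 5 of 22 genes (LAMP1, MCOLN1, CTSA, ATP6V0B and GAA), beside 1.1% of all 15843, and at least 3 in 1 of 22, beside 0.17%. LAMP1, which encodes a major glycoprotein of the lysosomal membrane, held 6 copies and was the only protein-coding gene in the table with as many in 1 window (0.00631%). Of its copies, 4 lie in a row with centres 189, 173, 156 and 139 bases before the start, and the other pair have centres 25 bases before and 2 bases after it.

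The bases next to the E-boxes were compared with those in all promoters. All 18 copies had t before or a after the hexamer, and 9 of them had both, which spells TCACGTGA. Over 2062 copies in all protein-coding promoters whose neighbouring bases lie within the window, 15.1% had both, 38.3% had 1 of them and 46.7% had neither. Counted by gene and on either strand, TCACGTG occurred in 9 of 22 genes, beside 5.83% of promoters. TCACGTGA occurred in 6 of 22 genes, beside 1.65%. The CLEAR consensus, which adds gt before and ac after the hexamer, occurred in 3 of 22 (ATP6V1G1, GAA and MCOLN1), beside 0.638%. By position, 12 of the 18 copies had their centre within 100 bases before the start (66.7%), against 48.2% of 2077 copies in all promoters. The 18 copies come from 9 genes, with 6 copies in LAMP1 alone, and copies in 1 gene are not independent. In the counts of copies over all promoters, a copy within overlapping windows enters once for each window. These are matches of letters and not measured sites.

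BHLHE40 was listed at most of these genes. A BHLHE40 region lay in the window of 30 of 33 genes (90.9%), beside 58.7% of all protein-coding genes. A BHLHE40 summit lay within 1 kb of the gene start in 28 of 33 (84.8%), beside 45.2%. For the 11 genes with no listed start the nearer end of the record was used in place of the start, and the same was done for all other such genes. With listed starts only the counts were 19 of 22 and 48%. Since most of these genes had H3K27ac at the start, the closer comparison is with the 11075 protein-coding genes that had it too. There the share was 28 of 31 (90.3%) beside 79.2%, a smaller gap than over all genes. In the whole gene window it was 29 of 31 (93.5%) beside 87.9%, which is close to the background.

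H3K27ac was present in all 33 windows, beside 74.9% of all protein-coding genes, and at the start of 31 genes, beside 55.3%. The exceptions at the start were CTSZ and MITF. With listed starts only, H3K27ac was found at 20 of 22 starts, beside 57.6%. The median record was 21.9 kb for the set and 24.1 kb for all protein-coding genes. Among records under 100 kb, BHLHE40 was in 28 of 31 windows (90.3%), beside 56.1%, GATA3 in 16 of 31, beside 37.9%, and H3K27ac in 31 of 31, beside 71.1%. GATA3 was near its background: a region lay in 17 windows (51.5%), beside 44.4%, and a summit at 9 starts (27.3%), beside 20.5%, or at 5 of 22 listed starts, beside 22.1%. Among genes with H3K27ac at the start, GATA3 summits were found at 9 of 31 (29%), beside 35.8%, and GATA3 regions in the window of 17 of 31 (54.8%), beside 61.8%. Regions of all 3 lists lay in 16 windows, beside 38.4%.

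**Figure D1:**
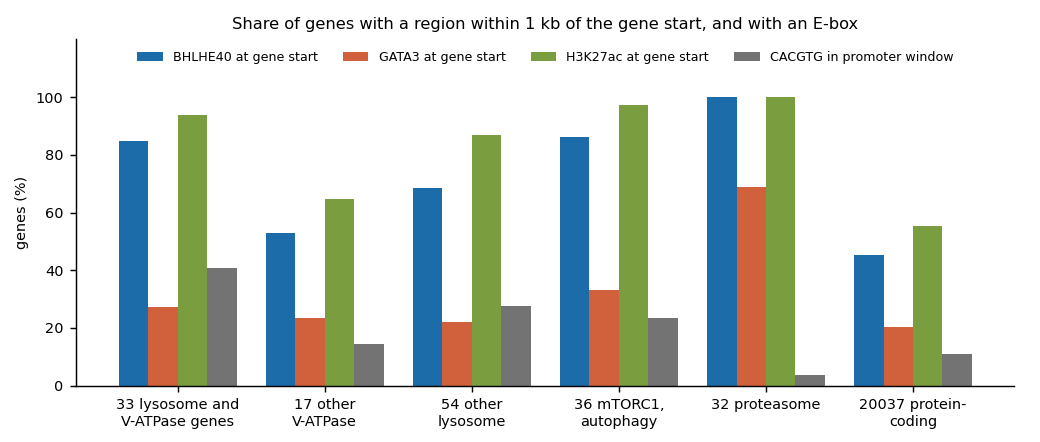
Share of genes in percent (vertical axis) with a BHLHE40 or GATA3 summit or an H3K27ac region within 1 kb of the gene start, and with CACGTG in the promoter window, for 6 gene lists; the last share counts only genes with a promoter sequence. The 33 genes have BHLHE40 at 84.8%, GATA3 at 27.3%, H3K27ac at 93.9% and the E-box at 40.9%, and all protein-coding genes have 45.2%, 20.5%, 55.3% and 10.9%.

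The V1 subunits form the ring that hydrolyses ATP and the stalks that join it to the membrane. All 8 had a BHLHE40 summit and an H3K27ac region at the start. ATP6V1D, a subunit of the central rotor, had the highest BHLHE40 signal value of the 8, 20.9, and the highest H3K27ac value of all 33 genes, 14. Its BHLHE40 summit lay 280 bp before the start and 244 bp from the start of EIF2S1, so this region lies beside both genes. The H3K27ac summit with 14 lay 355 bp before the ATP6V1D start and 169 bp from that of EIF2S1. The H3K27ac region over the ATP6V1D start itself had a value of 3.75. ATP6V1A, the catalytic subunit, had a BHLHE40 value of 14.8 at its start, with the summit also 476 bp from the start of NAA50, and an H3K27ac value of 12.4. That H3K27ac summit lay 264 bp from the start of NAA50 and 522 bp from the nearer end of the ATP6V1A record. ATP6V1H, a regulatory subunit, had 13.6.

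The other V1 subunits were lower on the BHLHE40 scale. ATP6V1E1, of the peripheral stalk, had 8.77 and ATP6V1G1, its stalk partner, 8.69. ATP6V1F, a small rotor subunit, had 7.06, ATP6V1C1 had 6.72 and ATP6V1B2, a non-catalytic subunit of the ring, had 4.62. That last value ranked 24945 of 26205 regions, so within 1 protein complex the values ran from percentile 2.07 to percentile 88.9 (ATP6V1D) among the 9066 protein-coding genes with a BHLHE40 summit at the start. ATP6V1G1 was the only V1 gene with CACGTG among the 4 with a listed start, and its BHLHE40 summit lay 4 bp from the centre of the E-box.

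The V0 sector holds the membrane ring and the arm through which protons pass. All 7 V0 and accessory genes had BHLHE40 and H3K27ac at the start. ATP6V0D1, which joins V0 to the central stalk, had a BHLHE40 value of 17.8, with the summit 33 bp from its E-box. ATP6V0A1, an isoform of the proton-conducting subunit, had 15.2 and ATP6AP1, an accessory subunit used in assembly of the pump, had 14.6. ATP6V0C, the main ring protein, and ATP6V0E1, a small membrane subunit, both had 11.5. ATP6V0B, another ring protein, had 11.1 and ATP6V0A2, a Golgi and endosome isoform, 10.1. The range over this group, 10.1 to 17.8, was narrower than that over the V1 genes, 4.62 to 20.9.

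Among the membrane proteins, LAMP1 stood highest. Its BHLHE40 region, chr13:113296667-113297753, had a signal value of 50, rank 367 of 26205 and percentile 99.4 among gene starts with BHLHE40. The summit lay 137 bp before the start and 2 bp from the centre of the last E-box in the row of 4. H3K27ac at the LAMP1 start was ordinary, with a value of 6.43 (percentile 44.3). MCOLN1, a cation channel that releases calcium from lysosomes, had a BHLHE40 value of 14.9 with the summit 110 bp before the start and 71 bp from the nearer E-box. A second MCOLN1 region, with a value of 8.61, lay beyond the other end of the record, 53 bp from the start of PNPLA6. LAMP2, a glycoprotein related to LAMP1 and needed for autophagy, had no BHLHE40 region, although H3K27ac at an end of its record had a value of 8.78 (percentile 69.8).

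**Figure D2:**
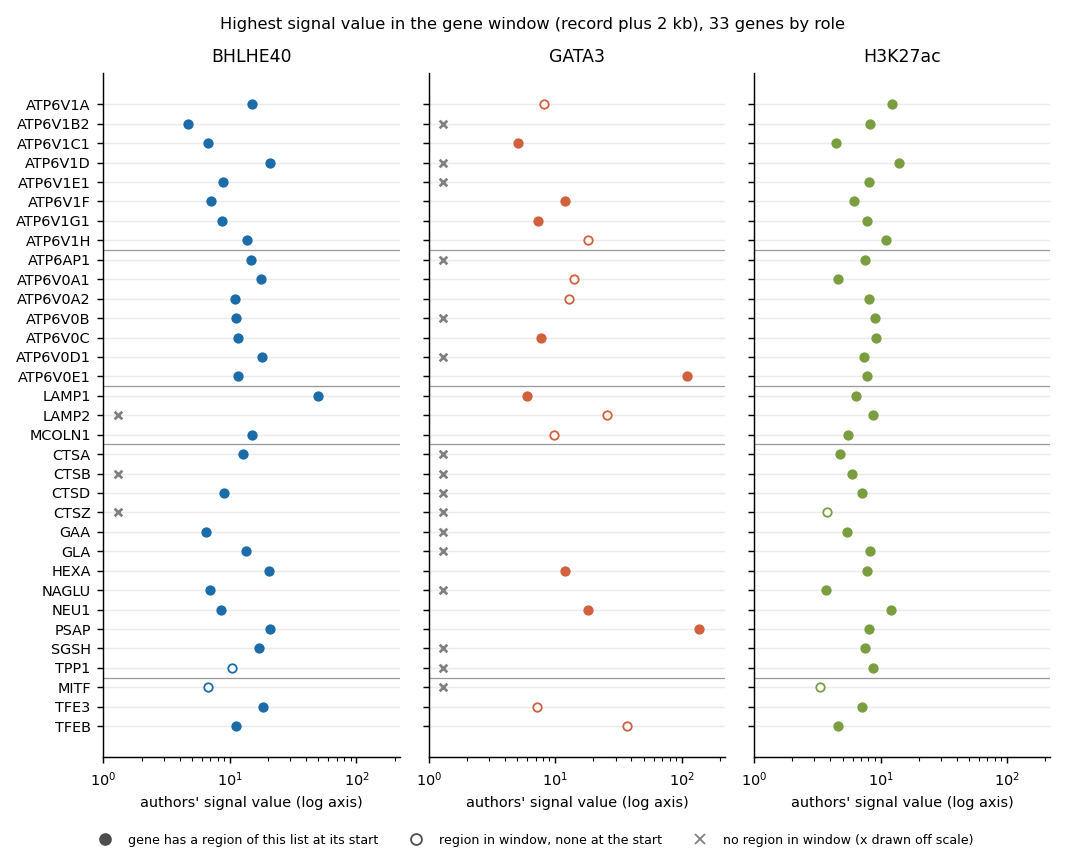
Highest signal value in the gene window for each of the 33 genes (rows, grouped by role with grey lines between groups) in the BHLHE40, GATA3 and H3K27ac lists, on log axes; filled points mark genes that also have that list at the gene start, open points genes that do not, and crosses genes with no region. LAMP1 reaches 50 for BHLHE40, PSAP and ATP6V0E1 reach 138 and 110 for GATA3, and H3K27ac spans 3.31 to 14.

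Of the 12 hydrolases and activators, 9 had BHLHE40 at the start. PSAP, the precursor of the saposins that present lipids to lysosomal enzymes, had 20.5, with the summit at the end of its record. SGSH, a heparan sulfate sulfatase, had 17.1, and its summit also lay 800 bp from an end of SLC26A11. HEXA, the alpha subunit of beta-hexosaminidase, had 15, and GLA, alpha-galactosidase A, had 13.3. The GLA summit lay 303 bp before that gene's start and only 6 bp from the start of HNRNPH2, so the region cannot be assigned to GLA alone.

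CTSA, a protective protein for other glycosidases, had a BHLHE40 value of 12.6, with the summit 63 bp before its start, 23 bp from an E-box and 64 bp from the start of NEURL2. CTSD, an aspartic protease, had 8.96, NEU1, a sialidase, 8.49, NAGLU, of heparan sulfate breakdown, 6.98, and GAA, which degrades glycogen, 6.41. GAA was unlike the other E-box genes, because its summit lay 944 bp before the start and 870 bp from the nearer of its E-boxes, though the broad region covered both. No BHLHE40 region was listed in the windows of CTSB and CTSZ, 2 cysteine cathepsins. TPP1, a peptidase, had a region only at the far end of its record, 221 bp from the start of TAF10.

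The strongest H3K27ac region within 1 kb of the start ranged, over the hydrolases that had one, from 3.67 at NAGLU to 12 at NEU1. This NEU1 region ended 330 bp before the start, and the region over the NEU1 start itself had 3.32. CTSB had H3K27ac near an end of its record, with a value of 5.89. CTSZ had only 2 weak H3K27ac regions, with values of 3.74 and 3.43, both beyond the far end of the gene. At GAA, both E-boxes lay in the gap between an H3K27ac region ending 131 bp before the start and another beginning 68 bp after it. The CTSD E-box lay likewise between regions ending 155 bp and beginning 5 bp before the start, and that of NEU1 between regions ending 330 bp and beginning 25 bp before it. With ATP6V1G1, these were 4 of the 9 E-box genes (44.4%) in which no CACGTG copy lay under an H3K27ac region. The same held for 38.2% of the 1216 protein-coding genes with CACGTG and H3K27ac at the start, a share near that of the set.

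The 3 transcription factors of the set bind CACGTG themselves, but none of their own listed promoter windows held it. TFE3 had a BHLHE40 value of 18.4 at its start. TFEB had 4 BHLHE40 regions and 3 listed starts. Of these regions, one with a value of 8.2 had its summit 104 bp before the nearest start, one with 6.69 lay 43 bp after a start, and the strongest, 11.1, lay 3728 bp after the nearest start. MITF, the master regulator of melanocytes, had 1 BHLHE40 region with a value of 6.65, 6231 bp after a start, and no H3K27ac at any of its 3 listed starts. Its highest H3K27ac value was 3.31, the lowest such maximum of the 33 genes. MITF also has the longest record of the set, 229 kb.

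**Figure D3:**
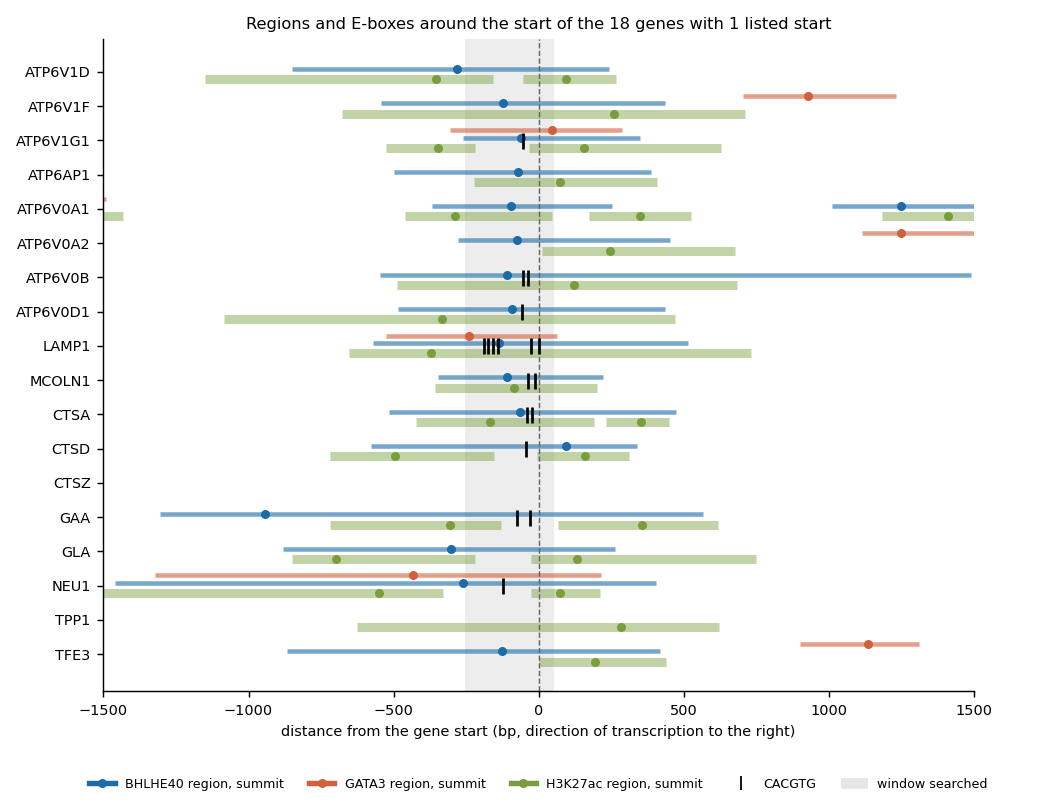
Regions of BHLHE40, GATA3 and H3K27ac (bars, with the summit as a point) and CACGTG copies (black ticks) by distance in bp from the gene start, for the 18 genes with 1 listed start; the grey band is the window searched for motifs. BHLHE40 summits sit close before the start in most genes, 137 bp before it at LAMP1 and 944 bp at GAA, and CTSZ has no region within the range drawn.

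Over all 28 genes with a BHLHE40 summit at the start, the signal value there ran from 4.62 to 50 with a median of 12.1, and 17 of them lay above the median of all such protein-coding genes, 10.8. For H3K27ac the median at the start was 7.59, beside 6.88, with 18 of 31 genes above it, and for GATA3 it was 7.66, beside 9.05, with 4 of 9 above it. Over the 20 summits within 1 kb of a listed start, 17 lay before it (85%), and the median position was 99.5 bp before it. Over 8338 such summits at all protein-coding starts, 66.9% lay before the start, with a median of 71 bp before it. For the strongest H3K27ac region with a summit at the start, 10 of 20 summits lay before the start (50%) and 10 after, beside 40.5% of 9009 before it over all protein-coding genes. In the 9 E-box genes the summit lay a median of 54 bp from the nearest CACGTG, with a range of 2 to 870 bp. In all 1012 protein-coding genes with both in 1 window the median was 70 bp. It was at most 100 bp in 6 of 9 genes and in 61.1% of all such genes, so on this measure the E-box genes of the set lay near other promoters with both.

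A BHLHE40 region overlapped the promoter window of 19 of 22 genes, beside 47.4% of protein-coding genes. This was so for all 9 genes with CACGTG, beside 62.4% of 1727 protein-coding genes with it. All 9 also had H3K27ac at the start. Of the 1216 protein-coding genes with CACGTG and H3K27ac at the start, 1050 had BHLHE40 over the window. Beside these more similar genes the gap was smaller than beside 62.4%. A BHLHE40 region also overlapped the window of 10 of 13 genes without CACGTG, beside 45.6% of 14116. That background was not split by H3K27ac at the start, so it is a less similar one. CTSZ and MITF, which had no BHLHE40 region over the window, had no H3K27ac at the start either. BHLHE40 regions were thus listed over windows with and without the hexamer. Regions can reach beyond the window, where CACGTG was not searched. The BHLHE40 summit lay inside the window in 13 of 22 genes, beside 32.9% of protein-coding genes. The median BHLHE40 value over the window was 11.1 in genes with CACGTG and 12.4 in those without, whereas over all protein-coding genes the medians were 12.7 and 10.7. With 9 and 10 genes and no replicate values, this difference in order was not tested. By copy number over all genes, the share with BHLHE40 was 61.1% at 1 copy, 74.3% at 2 copies and 70.4% of 27 genes at 3 or more, and the median value was 12.4, 15.1 and 17.5.

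For comparison, the 90 bases before the start are given for the 3 genes with the highest BHLHE40 values over a window without CACGTG, on the strand of the gene (RefSeq, GRCh38.p14). They are ATP6V1D at 20.9, TFE3 at 18.4 and ATP6V0A1 at 15.2. The BHLHE40 summits of all 3 genes lie farther before the start than these 90 bases, so the sequence at the summits is not shown. The ATP6V1D summit, 280 bp before the start, also lies outside the window searched for CACGTG. No base is in capitals, since the capitals mark CACGTG.
ATP6V1D (chr14:67359805-67359894, minus strand): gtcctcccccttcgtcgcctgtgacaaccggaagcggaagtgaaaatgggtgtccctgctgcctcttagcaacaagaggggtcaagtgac
TFE3 (chrX:49043358-49043447, minus strand): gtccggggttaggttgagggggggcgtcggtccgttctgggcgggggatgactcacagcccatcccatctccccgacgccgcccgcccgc
ATP6V0A1 (chr17:42458788-42458877, plus strand): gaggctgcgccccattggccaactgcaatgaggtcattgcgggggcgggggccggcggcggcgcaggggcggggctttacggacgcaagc

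**Figure D4:**
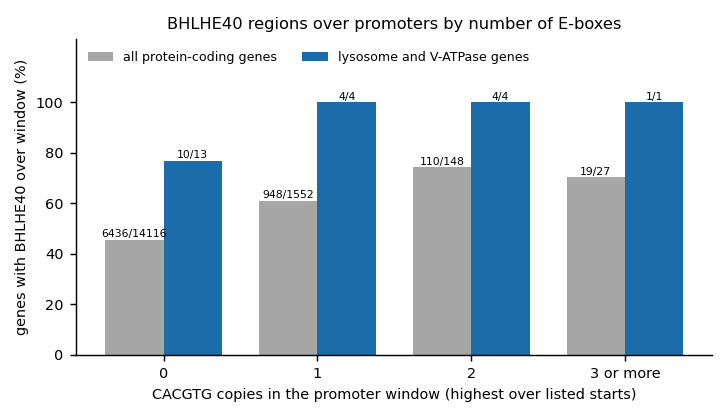
Percent of genes with a BHLHE40 region over the promoter window (vertical axis) by the number of CACGTG copies in it (horizontal axis), for all protein-coding genes and for the 22 lysosome and vacuolar ATPase genes with a promoter sequence; the fraction over each bar gives the genes. Over all genes the share is 45.6% with no copy and 61.1% with 1 copy, and in the set it is 76.9% with none and 100% with any. Genes are not split by H3K27ac at the start.

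GATA3 was listed at few of these starts, but very strongly at a pair of them, PSAP and ATP6V0E1. Neither gene has a listed start, so the nearer end of the record stands for the start. A GATA3 region overlapped the promoter window of 4 of 22 genes, beside 20.6%. At PSAP the region chr10:71850699-71851670 had a GATA3 signal value of 138, rank 85 of 29009, with the summit 30 bp from the BHLHE40 summit and 30 bp outside the end of the gene record. At ATP6V0E1 the region chr5:172983350-172985056 had 110, rank 188, with its summit inside the record, 690 bp from the end, and 26 bp from the BHLHE40 summit. The corresponding BHLHE40 values were 20.5 and 11.5. The other 7 genes with GATA3 at the start ran from 5.06 at ATP6V1C1 to 18.1 at NEU1. LAMP1, highest for BHLHE40, had a GATA3 value of only 6.

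All 9 genes with a GATA3 summit at the start also had a BHLHE40 summit there, and the regions overlapped in 8 of them (88.9%), the exception being ATP6V1F. Over all 3799 GATA3 regions with a summit at a protein-coding start, 89.2% overlapped BHLHE40, so this share was at the background. Seen from BHLHE40, 8 of 29 start regions in the set overlapped GATA3 (27.6%), beside 38.4% of 8683 such regions at protein-coding starts. Among the 12 hydrolases, GATA3 regions were listed in the windows of HEXA, NEU1 and PSAP and in no other. In 8 genes (ATP6V0A1, ATP6V0A2, ATP6V1A, ATP6V1H, LAMP2, MCOLN1, TFEB and TFE3) GATA3 lay in the window and not at the start. Where the factors overlapped, 16 regions in 12 genes, their summits lay 6 to 243 bp apart, with a median of 40.5 bp. Overlap itself limits how far apart summits can lie, and no such distance over all genes is set beside these.

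Away from the starts, several genes held shared regions inside the record, where exons and introns are not told apart. HEXA had its strongest BHLHE40 region there (chr15:72365654-72366587, signal value 20.5), with the GATA3 summit 13 bp away and H3K27ac over both. PSAP had one at chr10:71822209-71822844 with a BHLHE40 value of 20.6, a GATA3 value of 7.66 and summits 6 bp apart. ATP6V0A1 had its strongest BHLHE40 region 25652 bp after the start (chr17:42484065-42484880, signal value 17.6), with the GATA3 summit 12 bp away and a GATA3 value of 12.4. In TFEB a GATA3 region with a value of 37.1, rank 2535, lay 35 bp by summit from BHLHE40 with no H3K27ac over it. LAMP2 had a GATA3 region with a value of 25.5 inside its record, with neither BHLHE40 nor H3K27ac.

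Other genes of the same pathway were counted in the same way, from lists made with earlier results of these data known. Of 17 further genes of the pump, tissue-restricted subunits and assembly factors among them, 9 had BHLHE40 at the start (52.9%) and 11 had H3K27ac (64.7%). ATP6V0A4, ATP6V0D2, ATP6V1B1, ATP6V1C2, ATP6V1G3 and TCIRG1, isoforms known from kidney or bone, had neither. ATP6V1E2 and ATP6V1G2, other isoforms on that list, had both, so its isoforms went both ways. ATP6V0E2 and ATP6AP2 had H3K27ac alone. Of 54 other lysosome genes, 37 had BHLHE40 at the start (68.5%) and 47 had H3K27ac (87%). The E-box was found in 2 of 14 and 11 of 40 of these promoters. SMPD1, acid sphingomyelinase, had a BHLHE40 value of 37.4 over its window, GUSB, beta-glucuronidase, 36.6, CLN3 20.4 and GALNS 18.5. CD68 had 51.7, from a region whose summit lay over 1 kb from its start. CLN3 and GALNS each held 2 copies of CACGTG, and CD68, SMPD1 and GUSB held none. CTSF, with 2 copies, and ACP5, IFI30 and ATP6V0E2, with 1 copy each, had no BHLHE40 region over the window. The other genes of these lists with CACGTG had one.

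Proteasome genes, a housekeeping set, gave another mix. All 32 proteasome subunit genes had BHLHE40 and H3K27ac at the start, and 22 had GATA3 (68.8%), against 9 of 33 (27.3%) here. CACGTG was found in 1 of 27 proteasome promoters (3.7%), that of PSMB3, against 9 of 22 (40.9%). These shares describe 1 list per factor and no test of the difference between gene lists was made.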

How the data were processed

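ChIP-seq region lists of stimulated Jurkat cells with a control lentivirus were used, 1 list for each group of 2 samples, grouped by sample title. Per the submitters' processing notes, reads were handled with bcl2fastq 2.20 and MACS2 on build hg38; the aligner and the use of input are not given in the sources used here. The names of the deposited factor lists give an IDR threshold of 0.05 (IDR, the irreproducible discovery rate, compares region ranks across replicates); the name of the H3K27ac list says pooled. The deposited score of the factor lists ran from 540 to 1000. The deposited signal value and the deposited −log10 q-value are the authors' per region. An IDR list keeps regions that repeat, and a pooled list also holds weak ones.

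Regions were counted in the RefSeq record (GRCh38.p14) plus 2 kb, at an overlap of at least 1 bp, and at gene starts within 1 kb, by summit for the factors and by overlap for H3K27ac. Motifs were searched on both strands of 300-base promoter windows, counting a gene if any of its listed starts qualified. All members are described, with the strongest region per list. Sequences were chosen by rule: E-box windows under BHLHE40 ranked by signal, then 3 BHLHE40 windows without the E-box. The members and the lists of other genes were chosen with earlier results of these data known. Coordinates are 1-based. Overlap and motif functions were tested on simulated data. Python 3.11.15, numpy 2.4.6, pandas 2.3.3 and matplotlib 3.10.9 were used. Alternatives were the window, the summit in place of overlap, records under 100 kb, a score of at least 830, a −log10 q of at least 5, other start distances and other motifs.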

Additional observations from a re-analysis of the deposited data

How the results depend on the processing

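Of 41 alternatives over 9 counts of genes, 38 planned and 3 added after seeing the data, 36 stayed within 1.5 times the reported count. The count with BHLHE40 at the start stayed between 24 and 29 of 33, except 19 of 22 with listed starts only. GATA3 at the start fell from 9 to 4 at a score of at least 830, where 14.3% of protein-coding genes had it, and to 5 of 22 with listed starts only (22.1%). H3K27ac at the start gave 20 of 22 with listed starts only, fewer genes being counted. CACGTG gave way to 21 of 22 for any CANNTG, which 70.5% of promoters hold, and to 3 for the CLEAR consensus. No paired analysis was possible because the lists merge the 2 samples of a group, and leaving out a replicate was not possible for the same reason. The unknown depth limits every absence: a gene with no listed region may have one in a deeper sample.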

Other observations

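Genes of the lysosomal mTORC1 platform and of autophagy, the nutrient-sensing partners of the lysosome, were counted in the same way. Of 36 such genes, 31 had a BHLHE40 summit at the start (86.1%), 12 a GATA3 summit (33.3%) and 35 an H3K27ac region (97.2%), TFEC being the exception for H3K27ac. CACGTG was found in 7 of 30 promoters (23.3%). TSC1, an inhibitor of mTORC1, had a BHLHE40 value of 43.4 over its promoter window and GABARAP, an autophagosome protein, 34.4, both without the E-box. RRAGC, a Rag GTPase, had 25.9 with 1 copy. RRAGB held 3 copies and had no BHLHE40 region over its window.

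Hexamers that GATA factors are known to bind were searched on both strands, namely TGATAA along with AGATAA, as well as AGATAG along with TGATAG. At least 1 of them occurred in 2 of 22 promoter windows of the set, beside 24.6% of protein-coding genes. None of the 4 genes with a GATA3 region over the promoter window held them, and over all 3262 such protein-coding genes 25.1% did. With only 4 genes, this difference was not tested. At NEU1 the GATA3 summit lay 433 bp before the start, outside the window searched. PSAP and ATP6V0E1, which had the highest GATA3 values, had no promoter sequence and were not searched. CATGTG, another E-box, occurred in 4 of 22 windows, beside 11.5%.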
